A study of Mus musculus with 8 samples.

Results

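The clustered protocadherins are a large family of cell-surface adhesion proteins, and their genes lie side by side in the alpha, beta and gamma clusters (*Pcdha*, *Pcdhb* and *Pcdhg*) on mouse chromosome 18. Members were chosen by name, as every array probe for a *Pcdha*, *Pcdhb* or *Pcdhg* gene. The rule itself used no measured value, but it was set with earlier results of these data known. The rule found 35 genes, of the 20660 genes named through RefSeq on the array, read by 38 of its 55681 non-control probes. RefSeq lists 58 clustered protocadherin genes, and the other 23 were not analysed here. All 22 beta genes had a probe, against 7 of 14 genes of the alpha cluster and 6 of 22 of the gamma cluster.

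Each alpha and gamma gene has a variable first exon with its own promoter, which is spliced to constant exons shared across the cluster, whereas the beta genes are made of a single exon. In neurons, promoters are chosen in a largely random way with the help of the insulator protein CTCF and the cohesin ring, so that each neuron carries its own set of isoforms and recognises its own branches by binding of like to like. The C-type genes at the ends of the alpha and gamma clusters are instead used more constantly across neurons. At E8.5 the neural tube is still closing and few neurons have formed.

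Expression was measured in 8 single whole embryos at embryonic day 8.5 (E8.5), all of them wild type and all carried by wild-type mothers. Of these, 4 were sired by males heterozygous for the hypomorphic *Eed* allele (*Eed* hypo/wt) and 4 by wild-type males of the same line (*Eed* wt/wt), named Eedl7Rn5-1989SB, on a C57bl6/129 background. The paper's legend for this comparison gives the mothers as C57bl/6J, whereas its text gives them the same background as the males. EED is a core subunit of Polycomb repressive complex 2, which deposits the repressive histone mark H3K27me3, and the comparison asks whether the father's genotype left a difference in embryos that did not inherit the mutation. Each group held 2 female and 2 male embryos, and per the methods the line also carried an *Oct4*GFP transgene. The 4 arrays of each group lay on a separate slide, by the slide codes of the scanner files, and an effect of the slide cannot be told apart from that of the father. The labels do not name the sire of each embryo, and 3 of the 4 embryos of wild-type fathers share the first part of their code, so some may be litter-mates. The study's methods and legends differ on how many males sired the embryos.

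The RefSeq gene models (assembly GRCm38.p6, used for names and order only) show why probes of this family need care. The 14 alpha models end within 1240 bases of each other and the 22 gamma models within 1384 bases, because their 3' exons are shared. The ends of the 22 beta models were spread over 253965 bases. Each member probe was assigned by the array's design to a transcript of 1 gene. Where a probe lies within that transcript was not given, so a signal from a shared alpha or gamma exon cannot be told apart from a signal of the named isoform. No probe sequence was used here.

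Most clustered protocadherins gave no signal that stood clear of the array background. Of the 38 probes, 21 were well above background in no embryo, 11 in 1 to 3 embryos, and 6 in all 8 embryos. Well above background is the flag that Agilent's software sets for a spot clearly brighter than its local background. Over all probes of the array, 20.4% were well above background in no embryo, 79.6% in at least 1 and 49.5% in all 8. The share of members well above background in at least 4 embryos was 15.8%, compared with 59.4% of all probes and 74.2% of the 27220 probes with a RefSeq name. The olfactory and vomeronasal receptors, a family known for sensing odours and pheromones, stood at 7.45% of 1450 probes. These shares are descriptions, since probes of a family are not independent. In RNA of a whole embryo, fewer cells using a gene and less RNA per cell cannot be told apart.

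**Figure D1:**
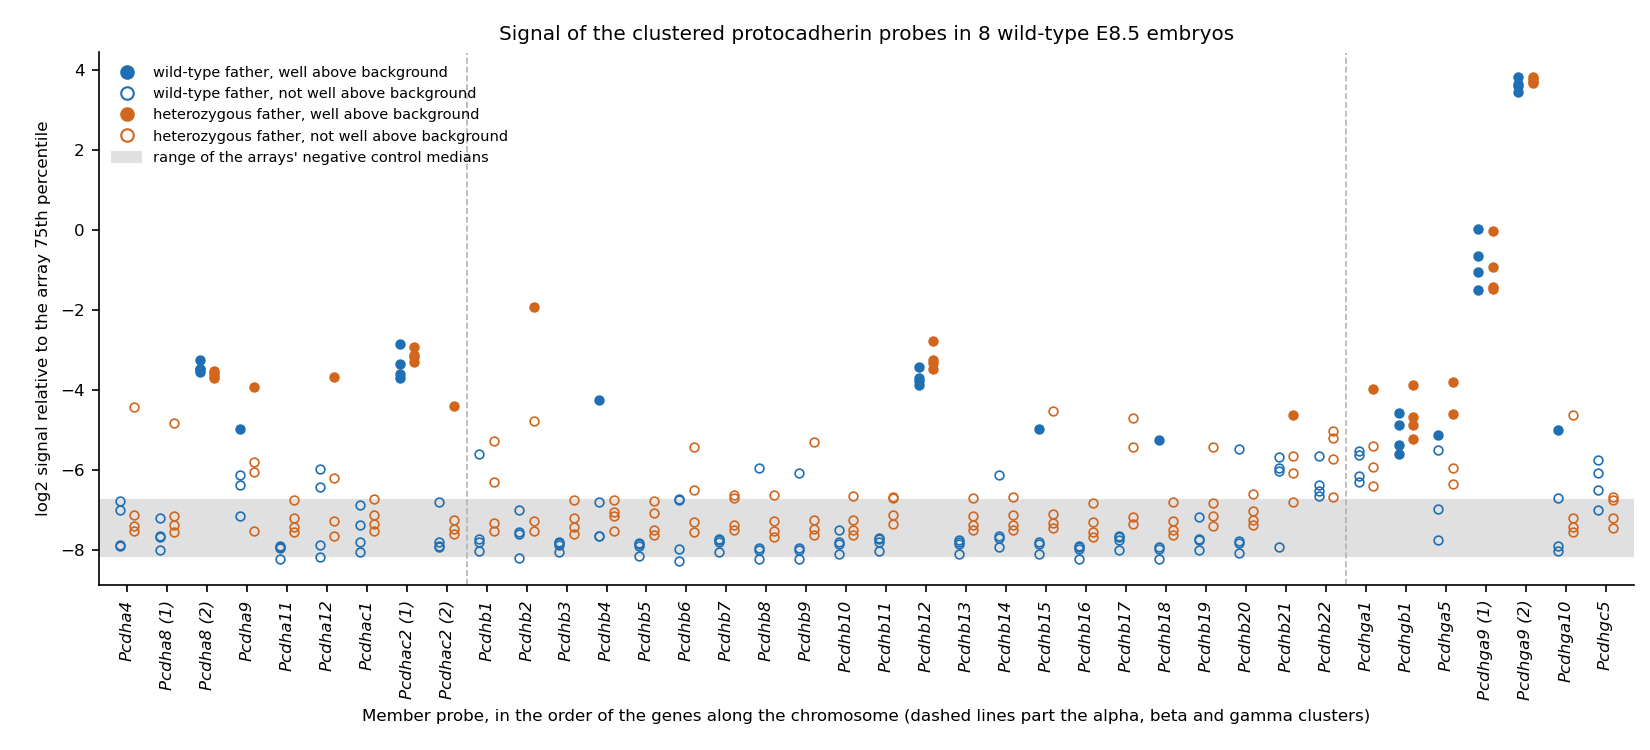
Log2 signal, relative to the 75th percentile of each array, of the 38 member probes (horizontal axis, in chromosomal order) in the 4 embryos of wild-type fathers (blue) and the 4 of heterozygous fathers (orange); filled points were well above background, and the grey band is the range of the arrays' negative control medians. Filled points occur in all 8 embryos at 6 probes, in 1 to 3 embryos at 11 and in none at 21; heights of different probes are not comparable with each other.

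Detection differed between the probes of the families. Alpha and gamma probes may read exons shared across their cluster, and they covered only 7 of 14 and 6 of 22 genes. The beta cluster was detected least often, with 16 of 22 probes well above background in no embryo, 5 in a single embryo and only *Pcdhb12* in all 8. Of the 6 probes of alpha isoforms outside the C-type genes, 1 probe of *Pcdha8* was well above background in all 8 embryos, *Pcdha9* in 2, *Pcdha12* in 1, and 3 probes in none. All 6 probes of gamma isoforms outside the C-type genes were well above background in at least 1 embryo, and those of *Pcdhgb1* and *Pcdhga9* in all 8. Of the C-type genes, *Pcdhac2* was measured in every embryo by 1 of its 2 probes, the probes of *Pcdhac1* and *Pcdhgc5* were well above background in none, and *Pcdhgc3* and *Pcdhgc4* were not analysed here.

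The 6 probes seen in every embryo were the only members that could be compared between groups. A probe was tested where it was well above background in at least 4 of the 8 embryos and its mean signal was above the lowest 20% of probes. This left 33093 probes of the array, among them these 6. None of the 6 was saturated. All values are log2 signals relative to the 75th percentile of the array, and a difference is the mean of the heterozygous fathers' embryos minus that of the wild-type fathers' embryos unless another is named. The separate samples are single embryos, and p-values measure the spread between them, treated as independent although some may be litter-mates.

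*Pcdhb12*, an adhesion isoform of the beta cluster, had the only unadjusted p under 0.05 among the 6 for father. In replicates 1 to 4 of wild-type fathers its log2 signal was -3.42, -3.78, -3.69 and -3.87. In replicates 1 to 4 of heterozygous fathers it was -3.47, -3.25, -2.78 and -3.31. The groups overlapped, as the first embryo of wild-type fathers was brighter than the first of heterozygous fathers, and the third embryo of heterozygous fathers was brightest of all. The log2 fold change was 0.48 (SE 0.17, 95% interval 0.09 to 0.88, 1.40-fold). Its unadjusted p from limma was 0.0217 and its adjusted p over all tested probes was 1, so the difference failed the correction. Its log2 fold change was 0.35 after quantile normalization and 0.11 after normexp with quantile normalization, and it was 0.34 without the third embryo of heterozygous fathers. At an unadjusted p under 0.05 it was 1 of 6 members, while 4.35% of all tested probes passed that mark and 2% passed it in the higher direction.

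*Pcdha8*, an alpha isoform, read slightly lower with heterozygous fathers. Its brighter probe read -3.25, -3.46, -3.47 and -3.54 with wild-type fathers. With heterozygous fathers it read -3.52, -3.65, -3.57 and -3.69. Only the fourth embryo of wild-type fathers lay within the range of the other group. The log2 fold change was -0.18 (SE 0.08, 95% interval -0.37 to 0.02), with an unadjusted p from limma of 0.0693 and an adjusted p of 1. After quantile normalization it was -0.44. The whole spread over the 8 embryos was 1.35-fold, narrower than that of all but 1 of the 6 probes.

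*Pcdhac2*, the C-type isoform at the end of the alpha cluster, is known for its role in serotonergic axon tiling. Its measured probe read -3.59, -3.36, -3.71 and -2.85 with wild-type fathers. With heterozygous fathers it read -2.93, -3.31, -3.17 and -3.11, all inside the range of the other group. The log2 fold change was 0.25 (SE 0.19, 95% interval -0.20 to 0.70), and its unadjusted p from limma was 0.236. Leaving out single embryos moved the change between 0.14, without the third embryo of wild-type fathers, and 0.42, without the fourth. The same probe showed the smallest p of the members for the embryo's sex, as described after the fathers.

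The gamma cluster held the most variable of the measured members. *Pcdhgb1* read -4.86, -5.59, -5.37 and -4.57 with wild-type fathers and -4.86, -5.22, -3.86 and -4.67 with heterozygous fathers. The third embryo of heterozygous fathers was the brightest, and the log2 fold change was 0.44 (SE 0.34, 95% interval -0.34 to 1.23). It was 0.18 without that embryo and up to 0.63 with another left out. Over the 8 embryos the probe ranged 3.31-fold, the widest of the 6, and the groups overlapped.

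*Pcdhga9*, an A-type gamma isoform, had 2 probes well above background in every embryo, and they did not vary alike. The probe A_55_P1961863 read 3.45, 3.60, 3.65 and 3.82 with wild-type fathers and 3.77, 3.68, 3.71 and 3.83 with heterozygous fathers. It was nearly flat, with a range of 1.30-fold over the 8 embryos and a log2 fold change of 0.12 (SE 0.09, 95% interval -0.10 to 0.33). The change was 0.058 without the first embryo of wild-type fathers and 0.015 after the shift by the array median. The probe A_52_P667913 read -0.65, -1.49, -1.04 and 0.03 with wild-type fathers and -0.92, -1.41, -0.02 and -1.47 with heterozygous fathers. It ranged 2.86-fold, with the fourth embryo of wild-type fathers and the third of heterozygous fathers highest. Its log2 fold change was -0.17 (SE 0.42, 95% interval -1.15 to 0.81), and it turned to 0.10 without the fourth embryo of wild-type fathers and to 0.0019 without the fourth of heterozygous fathers. Both probes are assigned to the same transcript, and which of its exons each one reads was not given.

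**Figure D2:**
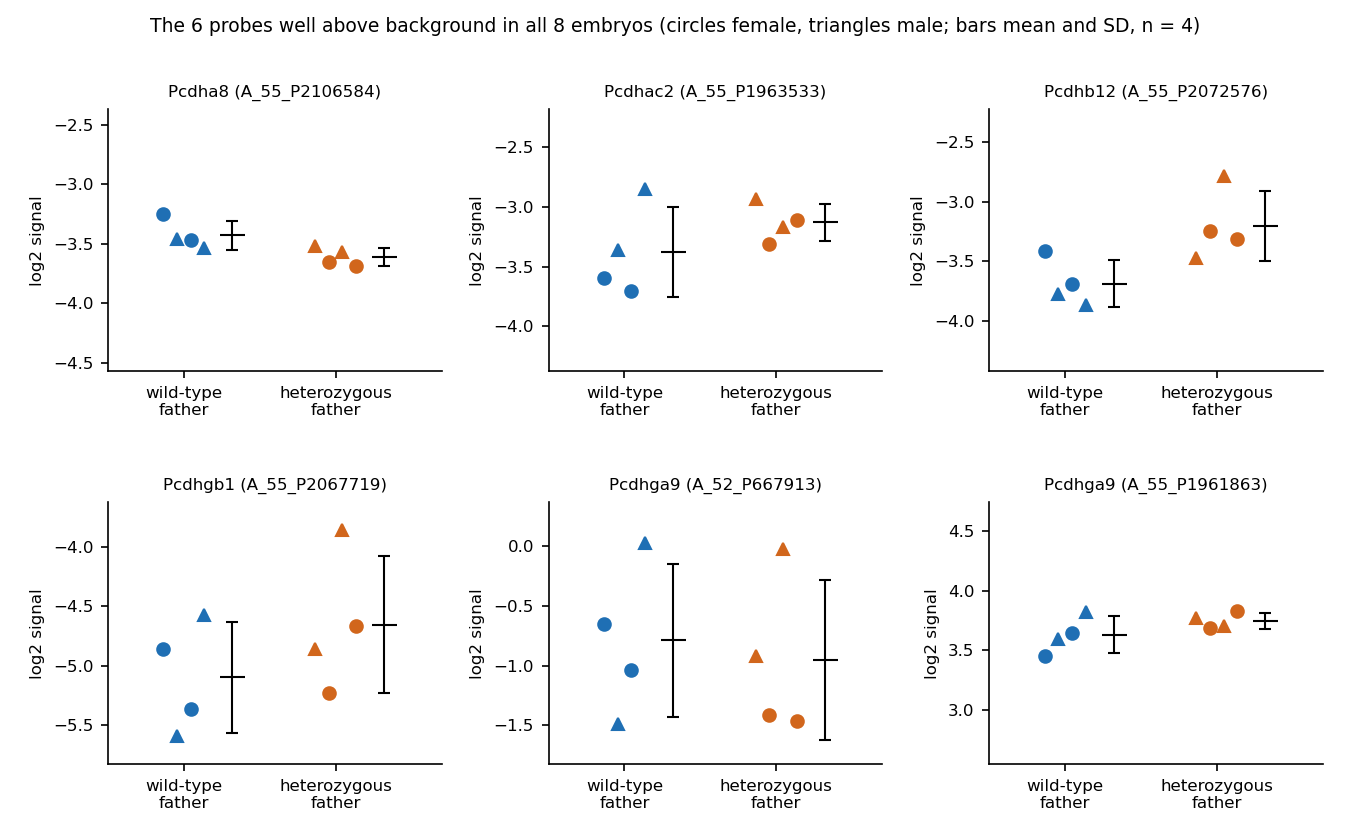
Log2 signal, relative to the 75th percentile of each array, of the 6 member probes well above background in all 8 embryos, by father's genotype, with the mean and SD of each group (n = 4); every panel spans the same number of log2 units, circles are female and triangles male embryos. The groups overlap in every panel, the *Pcdhga9* probe A_55_P1961863 spans 0.38 log2 units and *Pcdhgb1* spans 1.73.

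By the cut-off of the study's methods, an adjusted p under 0.01 and at least a 2-fold change, 0 of the 6 members were called for the father's genotype. Over all tested probes 0 were called as well (0%), and the smallest adjusted p of any probe was 0.246. In none of the 6 members were the groups of 4 free of overlap, compared with 3.16% of all tested probes. The members' log2 fold changes ran from -0.18 to 0.48, with 4 higher and 2 lower with heterozygous fathers. Their median was 0.18, beside a median of 0.00 over all tested probes. Shifting by the array median in place of the 75th percentile moved the median of all probes to -0.10 and that of the members to 0.08. With standard errors between 0.08 and 0.42, the 95% intervals of *Pcdha8*, *Pcdhac2*, *Pcdhb12* and the flat *Pcdhga9* probe lay wholly within a 2-fold change on this scale. After the shift by the array median or quantile normalization that of *Pcdha8* did not, nor did that of *Pcdhb12* after the shift by the array median. Those of *Pcdhgb1* and the other *Pcdhga9* probe did not.

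The embryo's sex was compared in a fit that kept the father's genotype. No member was called, while 11 of all tested probes were (0.0332%). At an unadjusted p under 0.05 there were 0 of 6 members, against 3.27% of all tested probes, and the sexes overlapped in each of the 6, against 2.58% of probes free of overlap. *Pcdhac2* came closest. Its 4 male embryos read between -3.36 and -2.85 and its 4 female embryos between -3.71 and -3.11. Male embryos exceeded female embryos by 0.35 on the log2 scale (SE 0.15, 95% interval -0.01 to 0.72), with an unadjusted p from limma of 0.0572 and an adjusted p of 1. The sex differences of the 6 probes, male minus female, ran from -0.06 for *Pcdhb12* to 0.54 for the variable *Pcdhga9* probe (SE 0.40), with a median of 0.19 beside 0.02 over all tested probes.

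No difference of the father effect between the sexes was detected. The interaction of father and sex called 0 members (0% of all probes), and none of the 6 had an unadjusted p under 0.05, against 2.22% of all tested probes. The smallest of the 6 was 0.154, for *Pcdha8*. The intervals were wide, from -1.12 to 2.83 on the log2 scale for the variable *Pcdhga9* probe, since each combination of father and sex held 2 embryos.

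**Figure D3:**
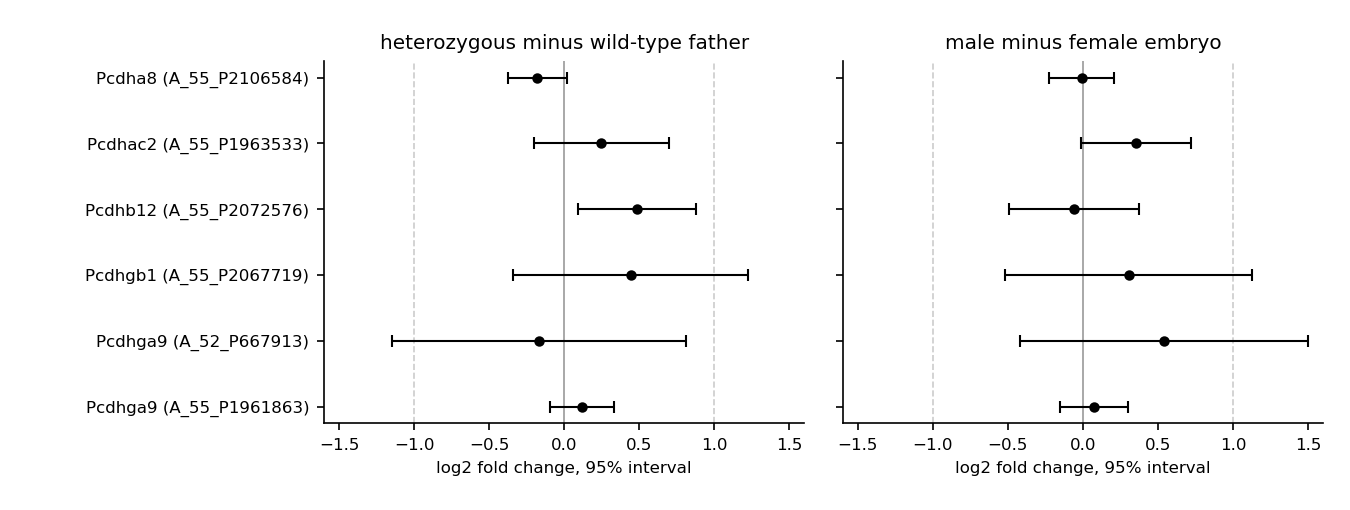
Log2 fold change with its 95% interval (limma, n = 4 per group) for the 6 tested member probes, for heterozygous minus wild-type fathers (left) and male minus female embryos (right); dashed lines mark a 2-fold change. Only the father interval of *Pcdhb12*, from 0.09 to 0.88, leaves out 0, and its adjusted p was 1.

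Beyond these 6 probes, 11 members were well above background in some embryos but not in others. They added 14 detections in all, and 9 of the 11 probes were detected in exactly 1 embryo. Embryos 1 to 4 of wild-type fathers held 4, 0, 0 and 2 of the detections, and those of heterozygous fathers held 0, 3, 5 and 0. The first embryo of wild-type fathers and the third of heterozygous fathers held 9 of the 14 together, so the detections followed single embryos in both groups. Another 4 embryos held none. These members were not tested.

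*Pcdhb2* was the clearest case of a member seen in a single embryo. The second embryo of heterozygous fathers read -1.93. The third read -4.77, and neither it nor the other embryos, which lay between -8.20 and -6.99, were well above background. Against the detection floors of the arrays of wild-type fathers, the mean of the heterozygous fathers' embryos was 1.62-fold higher, a rough bound that rests on that single detection. For each array the floor was set at the dimmest signal that still carried the flag, or at the probe's own signal where that was higher. Embryos of the brighter group without the flag entered at their own readings, so the bound is not a strict lower limit. The dimmest flagged signals lay lower on the arrays of wild-type fathers (-6.39 to -5.64) than on those of heterozygous fathers (-5.39 to -4.55). A bound above 1 was therefore easier to reach for a probe brighter with heterozygous fathers.

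*Pcdhb21* was also well above background in the second embryo of heterozygous fathers alone, at -4.62, with the other embryos between -7.92 and -5.64. Its rough bound was 1.01-fold higher with heterozygous fathers. *Pcdhga1* reached that level in the third embryo of heterozygous fathers, at -3.98 against -6.39 to -5.40 elsewhere, with a rough bound of 1.19-fold higher. The other 6 of the 9 probes with no detection in a group allowed no bound above 1. They were *Pcdha12* (the third embryo of heterozygous fathers, -3.67), the dimmer probe of *Pcdhac2* (the same embryo, -4.41), *Pcdhb4* (the fourth embryo of wild-type fathers, -4.25), and *Pcdhb15*, *Pcdhb18* and *Pcdhga10* (the first embryo of wild-type fathers, -4.96, -5.26 and -4.99).

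Only *Pcdha9* and *Pcdhga5* were detected with both kinds of father without being detected throughout. *Pcdha9* was well above background at -4.96 in the fourth embryo of wild-type fathers and at -3.93 in the third of heterozygous fathers, with the others between -7.51 and -5.79. *Pcdhga5* was so at -5.12 in the first embryo of wild-type fathers and at -4.60 and -3.79 in the second and the third of heterozygous fathers, with the others between -7.75 and -5.50. In both genes the detected embryos were the brightest of their group, and the brightest of all was the same embryo, the third of heterozygous fathers.

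The embryos with many sporadic detections also had more of these chemosensory receptor probes well above background. Of the 1450 receptor probes, 471, 98, 87 and 184 were well above background in embryos 1 to 4 of wild-type fathers and 80, 118, 539 and 52 in those of heterozygous fathers. The first embryo of wild-type fathers and the third of heterozygous fathers stood highest on both counts, while the second of heterozygous fathers had 3 sporadic member detections with 118 receptor probes. Over all probes, the share well above background ran from 52.4% to 71.0% of the array, and it was highest in the same pair of embryos. The part of this difference between arrays in the members' detections was not tested. Without that pair, 11 of the 38 members were well above background in at least 1 embryo, in place of 17, and 6 were again well above background in every embryo left.

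**Figure D4:**
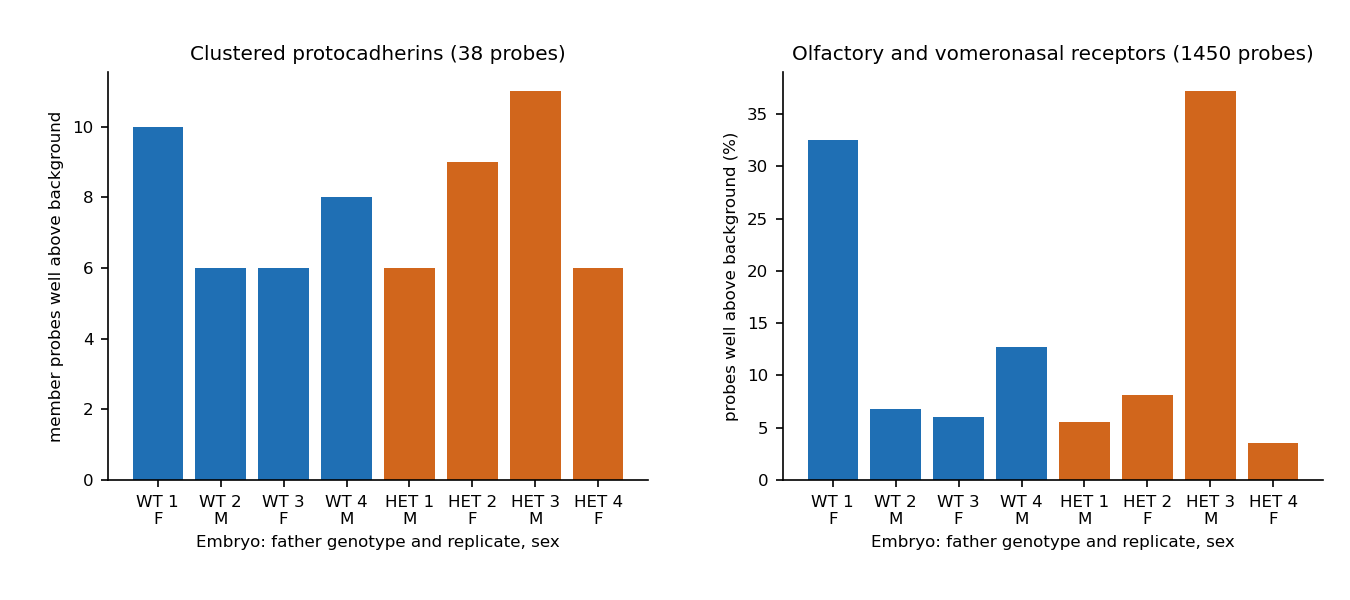
Number of member probes well above background (left, of 38) and percentage of olfactory and vomeronasal receptor probes well above background (right, of 1450) in each embryo, labelled by father (WT wild-type, HET heterozygous), replicate and sex (F, M). Wild-type replicate 1 and heterozygous replicate 3 are highest in both panels, at 10 and 11 member probes and at 32.5% and 37.2% of receptor probes.

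The 21 members never well above background were *Pcdha4*, *Pcdha11*, the dimmer probe of *Pcdha8*, *Pcdhac1*, *Pcdhgc5* and 16 beta genes (*Pcdhb1*, *Pcdhb3*, *Pcdhb5* to *Pcdhb11*, *Pcdhb13*, *Pcdhb14*, *Pcdhb16*, *Pcdhb17*, *Pcdhb19*, *Pcdhb20* and *Pcdhb22*). They have no measured level, and no fold change is given for them. Their readings were higher with heterozygous fathers for 20 of the 21, by a median of 0.68 on the log2 scale. The negative control spots match no transcript. The mean of their array medians was -7.93 with wild-type fathers and -7.24 with heterozygous fathers, a difference of 0.68. Taken in that way, as the mean of the array medians, the 21 members went from -7.70 to -7.18. When the filter on dim probes was dropped, 9 of the 38 members had an unadjusted p under 0.05 from limma, all higher with heterozygous fathers, where 8.13% of all probes did so, and none was called. Some of these probes still read above the 95th percentile of the negative controls, 12, 4, 4 and 6 of 21 in the embryos of wild-type fathers and 2, 7, 8 and 4 in those of heterozygous fathers.

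Genes with more than 1 probe showed how far the result depends on the probe. For *Pcdha8*, A_55_P2106584 was well above background in 8 embryos and A_55_P2106586 in 0. For *Pcdhac2*, A_55_P1963533 was so in 8 embryos and A_55_P2471752 in 1. Across the 8 embryos the signals of the *Pcdhga9* probes correlated at r = 0.11, of the *Pcdha8* probes at -0.29 and of the *Pcdhac2* probes at 0.39, which describes these arrays and was not tested. These probes share RNA and arrays, and in the *Pcdha8* and *Pcdhac2* pairs 1 probe was below the mark of well above background in at least 7 embryos.

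The genes that bind or close the protocadherin promoters were expressed throughout. All 16 listed regulators were well above background in all 8 embryos, including *Ctcf*, the cohesin genes *Rad21*, *Smc1a*, *Smc3*, *Stag1* and *Stag2*, the cohesin loader *Nipbl* and its release factor *Wapl*. The list also holds *Smchd1*, a silencer known to act on the clusters, the DNA methyltransferase *Dnmt3b* and the H3K9 methyltransferase *Setdb1*. Of these 16, 0 passed an unadjusted p under 0.05 for father or sex, and the father log2 fold changes lay between -0.17 for *Rest* and 0.13 for *Smc3*. *Ctcf* differed by -0.02 (SE 0.06) and *Smchd1* by -0.03 (SE 0.07). The median of the 16 was -0.02. These values are from the brightest tested probe of each gene. The other tested probes of *Stag1*, *Smchd1* and *Rest* differed by -0.13, -0.17 and -0.18, and those of *Dnmt3b* by 0.06 and 0.11.

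Genes for proteins that work with the protocadherins were also measured in every embryo, with few exceptions. Of 13 listed genes with a probe, 12 were tested, among them the kinases *Ptk2* and *Ptk2b*, which bind the cytoplasmic part, *Nckap1*, *Cyfip2*, *Wasf1* and *Abi2* of the WAVE complex, and *Adam10*, a protease that sheds the extracellular part. *Nlgn1* was well above background in no embryo. Of the 12, 0 passed the unadjusted mark for father or sex, with father differences from -0.26 for *Ptk2b* to 0.29 for *Axin1*.

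The protocadherins outside the clusters were read by the brightest probe of each gene. Of 11 listed genes, 8 were tested, all of them well above background in all 8 embryos. They included *Pcdh8*, the paraxial protocadherin of the presomitic mesoderm, *Pcdh12*, a protein of endothelial cells, and *Pcdh19*, a neural adhesion gene on the X chromosome. None of the 8 passed the unadjusted mark for father or sex. The father log2 fold changes ran from -0.40 for *Pcdh17* (SE 0.50) to 0.15 for *Pcdh1* (SE 0.13), with *Pcdh8* at -0.25 (SE 0.15) and *Pcdh19* at -0.20 (SE 0.15). *Pcdh20* was well above background in 2 embryos, *Pcdh9* in none, and *Pcdh11x* had no probe under that name.

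The genes next to the clusters did not share their low detection. The nearest protein-coding genes with a probe were *Hars*, *Hars2* and *Zmat2* before the alpha cluster, *Slc25a2* and *Taf7* between the clusters, and *Diaph1*, *Hdac3* and *Rell2* after the gamma cluster. All 8 were tested and 7 were well above background in every embryo, with *Slc25a2* in 6. By the brightest tested probe of each gene, the father differences ran from -0.12 for *Hars* (SE 0.23) to 0.11 for *Slc25a2* (SE 0.24). Of the 8, 0 passed the unadjusted mark for father or sex. The other tested probes of *Diaph1*, *Zmat2* and *Taf7* differed by -0.14, 0.02 and 0.09.

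Markers of the cells in a whole embryo were read beside the members. Of 12 neuron markers 10 were tested, and *Snap25*, which drives synaptic vesicle fusion, had a father difference of 0.25 (SE 0.11, unadjusted p from limma 0.0455), while *Neurod1* was well above background in 1 embryo and *Neurog1* in 3. The score of this list, the mean deviation of its tested genes from their own means, ranged from -0.18 to 0.10 with wild-type fathers and from -0.30 to 0.51 with heterozygous fathers, highest in the third embryo of heterozygous fathers. There *Elavl3*, *Dcx* and *Syt1* were at their brightest, while the other tested neuron markers were brightest in other embryos. *Dcx* was well above background in only 4 embryos. Of the tested members, *Pcdhb12* and *Pcdhgb1* were also brightest in that embryo and the others elsewhere, and a link was not tested. Of the 6 neural progenitor markers 0 passed the unadjusted mark, and their scores lay between -0.11 and 0.17 in all embryos.

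All 7 primitive erythroid and 7 yolk sac endoderm markers were measured, and 0 of them passed the mark for father. The erythroid score ranged from -0.997 to 0.42 with wild-type fathers and from -0.03 to 0.38 with heterozygous fathers, and the endoderm score from -0.34 to 0.26 and from -0.12 to 0.01. For sex, male minus female, *Gata1* of red cells had a difference of -0.57 (unadjusted p from limma 0.0093), and *Apoa4* of yolk sac endoderm had -0.62 (0.017). Of 8 trophoblast and decidua markers 5 were tested. These were *Prl3d1*, *Prl8a2*, *Hand1*, *Plac1* and *Dcn*, all well above background in all 8 embryos, while *Tpbpa* was so in none. *Prl8a2*, a decidual prolactin, had a father difference of -2.46 (SE 0.75, unadjusted p from limma 0.0126), with the third embryo of heterozygous fathers lowest at -2.61. *Plac1*, a placental gene, had a sex difference of 0.59 (0.00902). The score of this list ranged from 0.20 to 0.43 with wild-type fathers and from -1.23 to 0.27 with heterozygous fathers. Each of these adjusted p-values was 1, and the part of these markers in the members' values was not tested.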

How the data were processed

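RNA of 8 single embryos was hybridised to one-colour Agilent 8x60K arrays. Spots were extracted by the authors (Agilent Feature Extraction, version 11.0.1.1). In the deposited intensity values the background was subtracted and spatial trends were removed, and no scaling between arrays had been done. The probe intervals in the files are on build mm9, and no coordinate is printed. The methods give neither the percentile of the shift nor the test.

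Each array's log2 intensities were set relative to their 75th percentile, leaving out control and outlier spots, and spots of a probe were averaged. A probe with several spots was well above background where the spots with that flag were at least as many as those without, outlier spots left out. To be tested, a probe needed this flag on 4 or more arrays and a mean above the lowest 20%. The fits used limma 3.58.1 (R 4.3.3, with data.table at version 1.17.8), with Benjamini-Hochberg adjustment over 33093 probes, and the calls needed an adjusted p under 0.01 with a change of 2-fold or more. The test was checked on simulated data with independent embryos and changes larger than those of the members. That check does not cover changes as small as theirs. Of 28685 probes with a RefSeq accession, 27235 matched a symbol in the table of assembly GRCm38.p6. Python 3.11.15, pandas 2.3.3, numpy 2.4.6 and matplotlib 3.10.9 made summaries and figures. The number of arrays limits the precision.

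The members, gene lists and tests were chosen with earlier results of these data known. Named were members called or at an unadjusted p under 0.05, all C-type probes, the 3 probes of each family detected most often, the 3 most variable tested probes, genes with several probes, listed genes at an unadjusted p under 0.05, and the genes beside the clusters. Neighbours were narrowed to protein-coding genes with a probe. Other members were named after their values were seen, to account for every probe. Listed genes were read by their brightest tested probe. Some listed genes are not reported here. The deposited table of all arrays served as an alternative, and 0 of its sample columns went unused.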

Additional observations from a re-analysis of the deposited data

Results flagged for a closer look

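In groups of 4 embryos, a highest or lowest value was marked where its gap to the nearest other, divided by the range of the group, passed Dixon's critical value at the 95% level. Of 108 groups examined 18 passed, and 5.4 would by chance at 1 in 20. Among the members 15 of 76 groups passed, against 3.8 by chance, and none of the 15 belonged to a tested probe. In all 15, no value except at most the outlying one was well above background. The chance counts assume independent groups, whereas these share the same 8 arrays, so the excess is a description and not a test.

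The first embryo of wild-type fathers stood above its group for 7 beta genes, with gap ratios of 0.872 for *Pcdhb1*, 0.876 for *Pcdhb8*, 0.867 for *Pcdhb9*, 0.841 for *Pcdhb14*, 0.907 for *Pcdhb15*, 0.895 for *Pcdhb18* and 0.889 for *Pcdhb20*. Of these, *Pcdhb15* and *Pcdhb18* were well above background there, at log2 signals of -4.96 and -5.26. The other 5 were not well above background in any embryo, so their ratios compare readings without a measured level. In the same group, with no embryo well above background for either probe, the fourth embryo was highest for the *Pcdhac2* probe A_55_P2471752 (0.882) and the third was lowest for *Pcdhb21* (0.844).

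The third embryo of heterozygous fathers stood above its group for 6 members, with ratios of 0.874 for *Pcdha4*, 0.860 for the *Pcdha8* probe A_55_P2106586, 0.890 for the *Pcdhac2* probe A_55_P2471752, 0.835 for *Pcdhb9*, 0.881 for *Pcdhb15* and 0.882 for *Pcdhga10*. Only the *Pcdhac2* probe was well above background there, and the other 5 ratios compare readings without a measured level. *Pcdhb9* and *Pcdhb15* were thus marked in both groups. In that embryo 539 receptor probes were well above background, against 52 to 118 in the other embryos of its group (0.864).

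Outside the family the same embryo was lowest of its group for *Prl8a2*, at -2.61 against 0.30 to 0.72 (0.875), and for the neighbour gene *Hars2*, at 1.64 against 1.94 to 1.97 (0.905).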

How the results depend on the processing

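No member was called for father, sex or their interaction under any alternative, and the smallest adjusted p of a member was 0.282, without the filter on dim probes. The 1 member at an unadjusted p under 0.05 for father became 0 after the shift by the median, after normexp with quantile normalization, with a random block for the first part of the embryo code (correlation 0.54) and at an unadjusted p under 0.01. It became 2 with array weights (*Pcdhb12* and *Pcdha8*), and with an embryo left out it was 0 (without wild-type replicate 2) to 2 (without wild-type replicate 4, where *Pcdhac2* and *Pcdha8* passed and *Pcdhb12* did not). Without the filter it became 9 of 38, all higher with heterozygous fathers, where 8.13% of all probes passed in that direction, and the members' median rose from 0.18 to 0.62. The negative controls differed by 0.68 on that scale. The median was 0.12 to 0.30 with an embryo left out. The variable *Pcdhga9* probe ranged from -0.48 to 0.10 with an embryo left out, turning to 0.10 without wild-type replicate 4 and to 0.0019 without heterozygous replicate 4.

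For sex, 0 members at an unadjusted p under 0.05 became 1 with only probes well above background on all 8 arrays, with the replicate block, with the code block and with array weights, and ranged from 0 to 2 as single embryos were dropped (2 without heterozygous replicate 3). Replicate numbers do not pair these embryos (correlations of same-numbered deviations -0.55, -0.05, -0.59 and -0.15). With the replicate block the father count stayed at 1, and for father, tested probes of the whole array at that mark fell from 1440 to 874. The interaction could not be fitted with it.

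The counts of detected members also moved. Chosen after seeing the data, the flag for a positive and significant signal gave 34 members in at least 1 embryo and 18 in at least 4, and the 95th percentile of the negative controls gave 33 and 19, against 17 and 6, and each gave 7 in all 8 embryos against 6. Without wild-type replicate 1 and heterozygous replicate 3 it was 11 in at least 1 embryo. The causes were not tested.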
